A study of Mus musculus with 12 samples.

Results

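The 10 genes described here encode inhibitors of MAP kinase signalling: 6 dual-specificity MAP kinase phosphatases (Dusp1, Dusp2, Dusp4, Dusp5, Dusp6 and Dusp10) and 4 members of the Sprouty and Spred family (Spry1, Spry2, Spred1 and Spred2). They were named as a family of feedback inhibitors, found by symbol in the authors' tables and read by Ensembl identifier among 55414 gene records, and all 10 were tested in each comparison in edgeR. The RNA came from splenic CD4+ T cells of 18-week-old male BALB/c mice that carried no engineered allele. In the LIP group, periodontitis was induced with silk ligatures on both upper second molars, and the CTL group was anaesthetised without ligation. Cells were taken right after negative selection (day 0) or after 2 days of culture in the presence of IL-2 and of antibodies to TCRβ and CD28 (day 2), with 3 libraries in each of the 4 groups. For day 2, the treatment labels give anti-CD29 in 1 library of each group (CTL 93, LIP 96) and anti-CD30 in another (CTL 97, LIP 97), whereas the protocol and the paper's methods name anti-CD28 throughout.

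T cell receptor signalling activates Ras and then the kinases Raf, MEK and ERK, with JNK and p38 as parallel branches. The dual-specificity phosphatases remove phosphate from both the threonine and the tyrosine of the activation loop of these kinases. Many of them are transcribed in response to the signal that they then turn off, which makes them negative feedback regulators. Sprouty and Spred proteins act upstream, between the receptor and Raf, and several are themselves induced by ERK. Dusp1 and Dusp10 act mainly on p38 and JNK, Dusp6 and Dusp5 on ERK, in the cytoplasm and the nucleus respectively, and Dusp2 and Dusp4 are nuclear phosphatases that act on ERK and on other MAP kinases.

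The expected counts per library totalled between 6249018 and 7845676 on day 0 and between 8691699 and 12866718 on day 2. Levels are given as CPM, that is counts scaled to a common library size, on 1 scale for the 12 libraries, and libraries are named by their group and label number. Cd4 was at 422 to 645 CPM and Cd3e at 448 to 593 CPM in all 12 libraries, and Cd8a at 0.106 to 2.25 CPM. The summed level of 6 activation markers was 500 to 715 CPM on day 0 and 4642 to 5235 CPM on day 2. CTL 94 on day 0 and LIP 90 on day 2 lay close to the other treatment group for several members. LIP 90 also stood apart over all genes, with a chi-square per gene of 48.35 and 38.57 against LIP 96 and 97. Other pairs within a group had at most 13.06. Results that rest on CTL 94 or LIP 90 are given with and without them. Since member values were among the grounds for setting them aside, calls without them are a description and no independent test. In CPM, a change in the number of cells that express a gene cannot be told apart from a change in RNA per cell. The labels do not say whether the libraries of a group came from separate mice, so p-values measure the spread between these libraries.

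The authors' tables place these genes in GRCm39. Dusp1 lies on chr17:26724565-26727446, Dusp2 on chr2:127178079-127180297, Dusp4 on chr8:35274764-35287048, Dusp5 on chr19:53517576-53530240, Dusp6 on chr10:99099093-99103351 and Dusp10 on chr1:183766578-183807833. Spry1 lies on chr3:37694096-37698748, Spry2 on chr14:106129381-106134253, Spred1 on chr2:116951552-117003334 and Spred2 on chr11:19874442-19972597. All are protein-coding. In GENCODE M39 the Dusp1 record reaches further, to 26781102, and overlaps Ergic1 on the other strand. The libraries were directional, but the strand setting of the counting is not given in the sources used here, so reads of overlapping antisense records could not be told apart from those of the members.

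Upstream sequence is shown for 4 phosphatase genes, because Dusp1 and Dusp10 fell with stimulation and Dusp5 and Dusp6 rose. Each is the 250 bases before the start of the GENCODE M39 canonical transcript in GRCm39, on the strand of the gene, and capitals mark matches to the full cyclic AMP response element, the CArG box and the EGR motif. Matches to the E-box and to TGACG are left in lower case. Dusp1 is shown from chr17:26727494-26727743 (minus strand), Dusp5 from chr19:53517282-53517531, Dusp6 from chr10:99098818-99099067 and Dusp10 from chr1:183765620-183765869 (plus strand).
Dusp1: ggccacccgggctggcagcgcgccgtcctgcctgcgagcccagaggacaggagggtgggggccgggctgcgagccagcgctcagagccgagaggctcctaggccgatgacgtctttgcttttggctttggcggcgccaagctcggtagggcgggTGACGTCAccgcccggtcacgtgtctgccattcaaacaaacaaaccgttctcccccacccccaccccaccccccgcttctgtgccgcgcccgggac
Dusp5: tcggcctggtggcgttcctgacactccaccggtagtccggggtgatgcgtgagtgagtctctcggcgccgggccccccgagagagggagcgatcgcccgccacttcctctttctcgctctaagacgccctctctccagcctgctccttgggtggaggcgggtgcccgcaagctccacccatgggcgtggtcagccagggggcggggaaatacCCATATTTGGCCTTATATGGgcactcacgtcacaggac
Dusp6: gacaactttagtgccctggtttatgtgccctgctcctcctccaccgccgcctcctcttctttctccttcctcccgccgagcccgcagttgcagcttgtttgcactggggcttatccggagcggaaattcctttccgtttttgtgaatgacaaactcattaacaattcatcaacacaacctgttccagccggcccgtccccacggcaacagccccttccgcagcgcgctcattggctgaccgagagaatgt
Dusp10: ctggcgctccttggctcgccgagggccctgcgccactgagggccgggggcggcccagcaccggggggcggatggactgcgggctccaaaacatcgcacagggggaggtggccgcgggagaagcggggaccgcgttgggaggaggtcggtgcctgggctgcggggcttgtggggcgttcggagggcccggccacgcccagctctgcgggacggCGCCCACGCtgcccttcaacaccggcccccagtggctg
The capitals in Dusp1 are a cyclic AMP response element, TGACGTCA, from base -96 to base -89 before the start. This element was in 1.7% of 21757 protein-coding promoters of the same length and in 1 of the 10 members. The capitals in Dusp5 are 2 adjacent CArG boxes, the element bound by serum response factor, from base -38 to base -19. A CArG box was in 1.4% of promoters and in 1 member. The capitals in Dusp10 are a match to the EGR motif GCGNGGGCG, present in 4.48% of promoters and in 1 member. On both strands, the AP-1 motif TGANTCA (6.18% of promoters) and the ETS motif CCGGAAG (6.89%) were in 0 of the 10 members, the E-box CACGTG (6.26%) was in 1, and the shorter element TGACG (18.0%), which overlaps the full cyclic AMP element, was in 4. A match describes these letters only.

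Stimulation changed 8 of the 10 genes, in the same directions in both treatment groups. Dusp4, Dusp5, Dusp6, Spry1, Spred1 and Spred2 rose from day 0 to day 2, whereas Dusp1 and Dusp10 fell. A gene was called at an adjusted p under 0.05, from the quasi-likelihood test of edgeR and the Benjamini-Hochberg method over 15475 genes. At this threshold, 35.3% of all genes tested rose and 33.7% fell in the CTL group, and 36.6% rose and 35.2% fell in the LIP group. Most genes tested were thus called in either direction, so the total of 8 is no result about the members. By direction, 6 of them rose and 2 fell. The groups of the 2 days did not overlap for these 8 genes in either treatment group. The share of all genes without overlap between days was not computed, so nothing particular to the members is read from that. No cells cultured without stimulation were sequenced among these libraries, so stimulation and time in culture cannot be told apart.

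Dusp1, a nuclear phosphatase and immediate early gene, fell most. On day 0 it was counted at 199, 165 and 80.8 CPM in CTL 88, 89 and 94 and at 84.7, 64.2 and 65.6 CPM in LIP 92, 93 and 94. On day 2 it was at 15.7, 16.1 and 18.4 CPM in CTL 92, 93 and 97 and at 16.0, 20.8 and 18.9 CPM in LIP 90, 96 and 97. All stimulated libraries thus lay in a narrow band below every unstimulated library. The log2 fold change was -3.14 ± 0.27 (SE, n = 3 a group) in the CTL group, an 8.85-fold decrease (edgeR adjusted p = 2.37e-07), and -1.94 ± 0.26 in the LIP group, a 3.85-fold decrease (edgeR adjusted p = 1.53e-05).

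Dusp10 was the other gene that fell. It was at 181, 217 and 109 CPM in the CTL libraries and 125, 101 and 99.8 CPM in the LIP libraries of day 0. On day 2 it was at 72.2, 75.0 and 60.8 CPM in the CTL group and at 62.1, 50.7 and 61.7 CPM in the LIP group. The log2 fold change was -1.29 ± 0.20 in the CTL group (edgeR adjusted p = 6.07e-05) and -0.90 ± 0.20 in the LIP group (edgeR adjusted p = 0.00113).

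Among the phosphatases that rose, Dusp4 went from 9.64, 5.90 and 6.58 CPM to 153, 140 and 90.6 CPM in the CTL group. In the LIP group it went from 8.27, 7.88 and 9.22 CPM to 128, 206 and 223 CPM. The increase was 17.5-fold in the CTL group (log2 fold change 4.13 ± 0.27, edgeR adjusted p = 1.92e-08) and 21.9-fold in the LIP group (4.45 ± 0.27, edgeR adjusted p = 8.45e-09).

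Dusp6, the cytoplasmic ERK phosphatase, was at 30.7, 26.1 and 20.5 CPM in the CTL group and 22.7, 20.1 and 18.0 CPM in the LIP group on day 0. On day 2 it was at 248, 289 and 222 CPM in the CTL group and at 225, 123 and 151 CPM in LIP 90, 96 and 97. It rose 9.82-fold in the CTL group (log2 fold change 3.30 ± 0.22, edgeR adjusted p = 2.21e-08) and 8.19-fold in the LIP group (3.03 ± 0.22, edgeR adjusted p = 4.5e-08).

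Dusp5, the nuclear ERK phosphatase, was at 37.4, 34.4 and 26.2 CPM in the CTL group and 27.6, 23.8 and 27.9 CPM in the LIP group on day 0. On day 2 it was at 96, 73.3 and 73.9 CPM in the CTL group and at 87.0, 159 and 126 CPM in the LIP group. The increase was 2.49-fold in the CTL group (log2 fold change 1.31 ± 0.20, edgeR adjusted p = 5.83e-05) and 4.69-fold in the LIP group (2.23 ± 0.21, edgeR adjusted p = 4.59e-07).

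Dusp2 was the phosphatase without a call. It was at 98.0 to 140 CPM in the CTL group and 82.7 to 122 CPM in the LIP group on day 0, then at 104 to 133 CPM and 116 to 152 CPM on day 2. The days overlapped in both groups. The 95% interval of the log2 fold change was -0.37 to 0.37 in the CTL group and 0.02 to 0.76 in the LIP group (edgeR adjusted p = 0.0574). Without LIP 92 of day 0 the LIP value was 0.58 (edgeR adjusted p = 0.0108), and without LIP 90 of day 2 it was 0.46 (edgeR adjusted p = 0.0318). Leaving out 1 of the other 4 LIP libraries gave 0.26 to 0.45, with edgeR adjusted p-values of 0.0515 to 0.212. With upper-quartile normalization it was 0.07 (edgeR adjusted p = 0.73). In the LIP group Dusp2 was also called higher in DESeq2, where 36.3% of all genes were, and in edgeR without the filter on low counts, where 22.1% were.

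**Figure D1:**
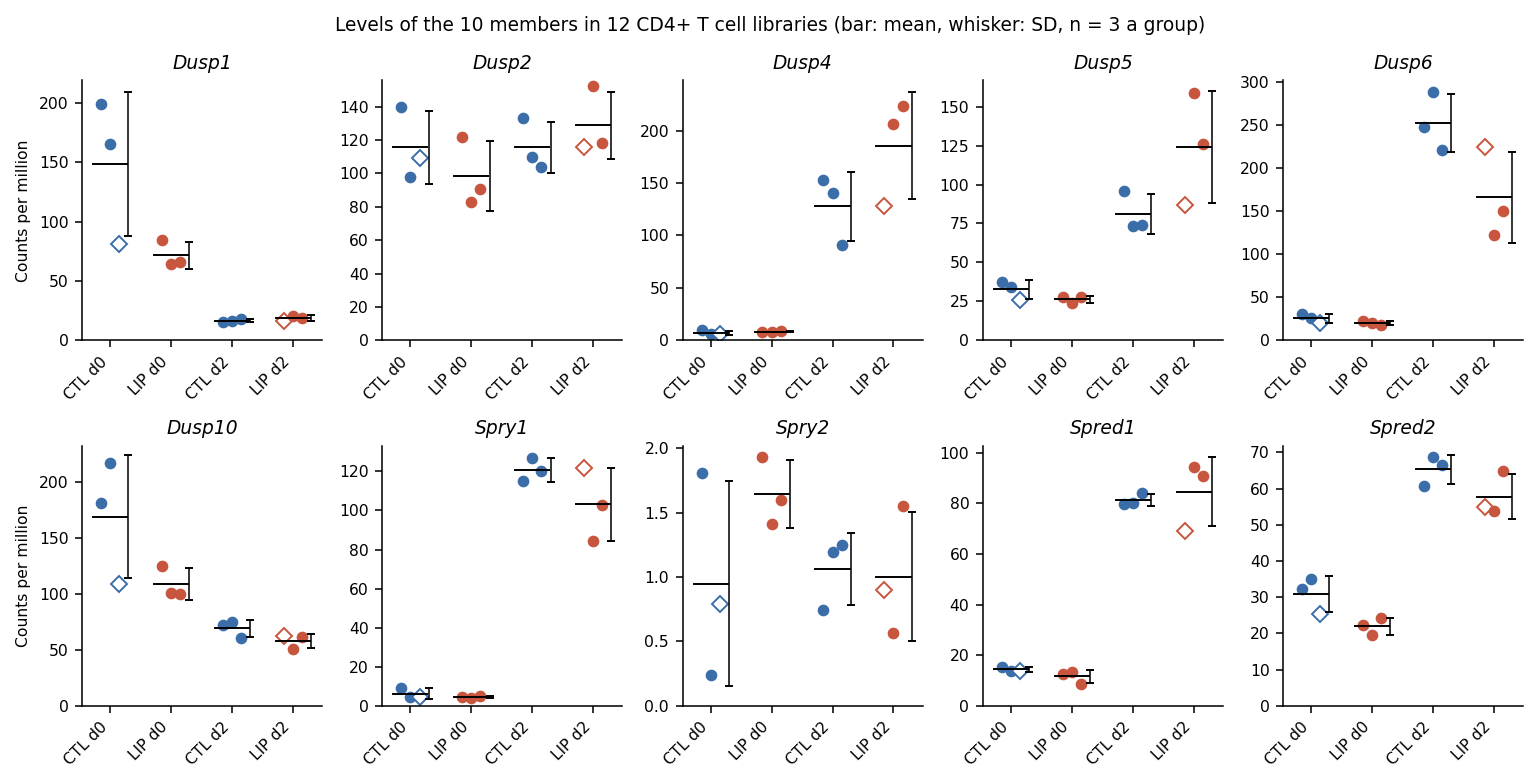
CPM of the 10 genes (vertical axes, each starting at 0) in the 12 libraries of the CTL group (blue) and the LIP group (red) on day 0 (d0) and day 2 (d2), with the mean as a bar and the SD as a whisker (n = 3). Open diamonds are CTL 94 on day 0 and LIP 90 on day 2. Dusp1 lay between 15.7 and 20.8 CPM in all day 2 libraries and at 64.2 CPM or more on day 0.

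Of the Sprouty and Spred genes, Spry1 changed most. It was at 9.34, 4.70 and 4.47 CPM in the CTL group and 4.68, 4.08 and 4.94 CPM in the LIP group on day 0, which were 29 to 62 counts per library. On day 2 it was at 115, 127 and 120 CPM in the CTL group and at 122, 84.6 and 103 CPM in the LIP group. The increase was 19.8-fold in the CTL group (log2 fold change 4.31 ± 0.22, edgeR adjusted p = 2.76e-09) and 22.5-fold in the LIP group (4.49 ± 0.23, edgeR adjusted p = 2.44e-09).

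Spred1 and Spred2, membrane proteins that bring the Ras inhibitor neurofibromin to Ras, also rose. Spred1 was at 13.8 to 15.5 CPM in the CTL group and 8.82 to 13.5 CPM in the LIP group on day 0, then at 79.7 to 84.3 and 69.1 to 94.3 CPM on day 2. Its log2 fold change was 2.50 ± 0.16 in the CTL group (edgeR adjusted p = 1.41e-08) and 2.87 ± 0.16 in the LIP group (edgeR adjusted p = 4.71e-09). Spred2 was at 25.3 to 35.0 CPM and 19.6 to 24.2 CPM on day 0, and at 60.7 to 68.6 and 53.7 to 64.9 CPM on day 2. Its log2 fold change was 1.08 ± 0.13 in the CTL group (edgeR adjusted p = 8.91e-06) and 1.39 ± 0.14 in the LIP group (edgeR adjusted p = 8.75e-07).

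Spry2 was at the edge of detection, with 2 to 14 counts and 0.241 to 1.93 CPM per library. The 95% interval of its log2 fold change with stimulation was -1.02 to 1.44 in the CTL group and -1.89 to 0.38 in the LIP group, so a change of either sign could not be resolved at this depth.

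**Figure D2:**
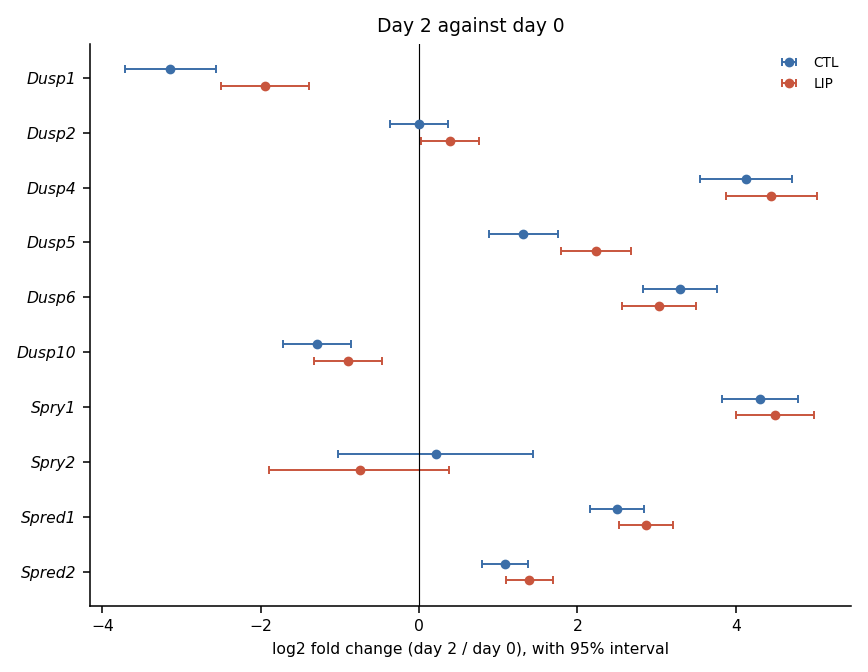
Log2 fold change of day 2 over day 0 (horizontal axis) with its 95% interval for each gene in the CTL group (blue) and the LIP group (red). Spry1 and Dusp4 were above 4 on this scale in both groups, and Dusp1 was at -3.14 and -1.94.

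Divided by the merged exon length of each gene, these changes turned over the order of the phosphatase transcripts. In the CTL group on day 0, Dusp2 was highest at 54.4 ± 10.3 CPM per kb (SD, n = 3), followed by Dusp1 at 44.6 ± 18.4 and Dusp10 at 27.9 ± 9.04. The libraries of Dusp2 and Dusp1 overlapped, as did those of Dusp1 and Dusp10. Dusp5 (13.2), Dusp6 (7.61) and Dusp4 (2.56 CPM per kb) followed, and none of these 3 overlapped its neighbour in the order. In the LIP group on day 0 the order was the same, and Dusp2 at 46.4 ± 9.89 CPM per kb did not overlap Dusp1 at 21.5 ± 3.46.

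On day 2, Dusp6 was highest in the CTL group at 74.6 ± 9.85 CPM per kb, without overlap with Dusp2 at 54.3 ± 7.10. Dusp4 followed at 44.5 ± 11.5 and Dusp5 at 32.7 ± 5.20, and each overlapped its neighbour. In the LIP group, Dusp4 (64.4 ± 17.6), Dusp2 (60.6 ± 9.56), Dusp5 (50.0 ± 14.6) and Dusp6 (49.0 ± 15.6 CPM per kb) overlapped in turn, so no order among them was resolved. Dusp1 was the lowest of the 6 in both groups on day 2, at 5.04 ± 0.431 and 5.59 ± 0.720 CPM per kb. Among the Sprouty and Spred genes, Spred2 was highest on day 0 (5.07 in the CTL and 3.61 CPM per kb in the LIP group) and Spry1 on day 2 (25.3 and 21.7 CPM per kb).

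As a share of the summed CPM per kb of the 6 phosphatases, Dusp1 was 28.8% ± 6.21 in CTL and 20.4% ± 0.352 in LIP on day 0. On day 2 its share was 2.31% ± 0.513 and 2.33% ± 0.0919. Dusp6 went from 5.10% ± 0.248 to 33.6% ± 3.38 in the CTL group and from 5.72% ± 0.562 to 21.0% ± 8.72 in the LIP group. Dusp4 went from 1.73% ± 0.367 to 19.8% ± 2.88 in the CTL group and from 2.84% ± 0.479 to 26.7% ± 5.61 in the LIP group. On day 0 the sum itself was 150.0 ± 35.7 (CTL) and 105 ± 16.7 CPM per kb (LIP), against 223 ± 27.8 and 239 ± 21.8 on day 2.

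**Figure D3:**
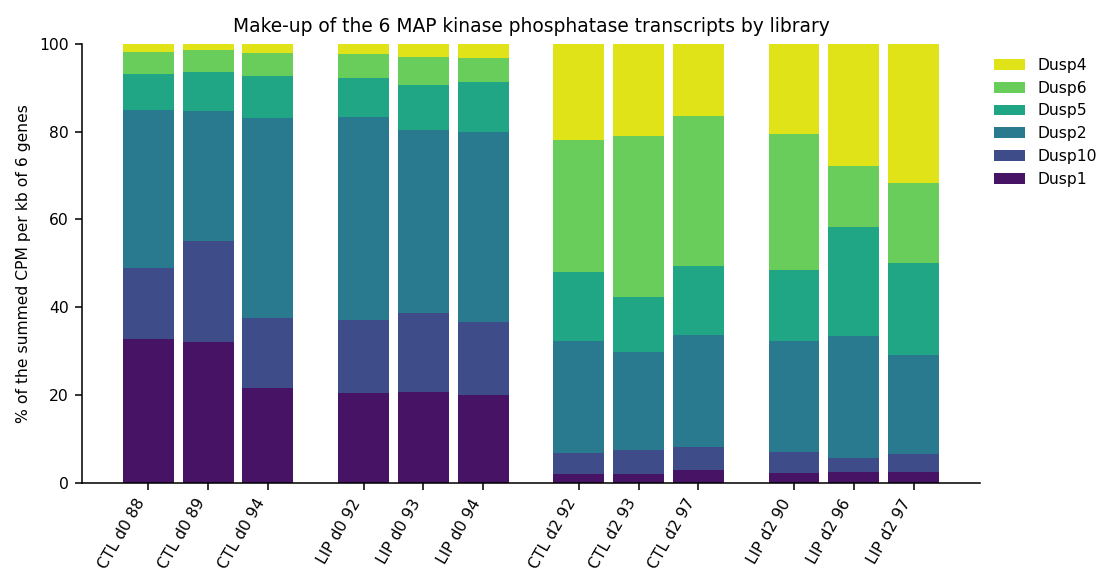
Share of each of the 6 phosphatase genes in their summed CPM per kb (vertical axis, in percent) for each library of the CTL and LIP groups on day 0 (d0) and day 2 (d2). Dusp1, Dusp10 and Dusp2 filled most of each day 0 bar, and Dusp6 took 30.0 to 36.6% in the CTL group and 14.0 to 30.8% in the LIP group on day 2.

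The second question was whether LIP changed these genes in freshly purified cells. With all 6 libraries of day 0, 0 of the 10 members passed the threshold in edgeR, where 0.427% of 14064 genes passed. DESeq2 gave an adjusted p to 6 of the members, and 0 of these passed, where 2.9% of 6975 genes with an adjusted p did. Dusp4, Spry1, Spry2 and Spred1 had none. At an unadjusted p under 0.05, 5 members were lower in the LIP group and 0 higher in edgeR, where 7.2% of all genes were lower and 6.67% higher. In DESeq2, 3 members were lower and 0 higher at that limit, where 5.58% of all genes were lower and 3.73% higher. In all, 8 of the 10 had a negative log2 fold change.

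The difference was largest for Dusp1, at 71.5 ± 11.5 CPM (SD, n = 3) with LIP and 148 ± 61.0 CPM without. The log2 fold change was -1.04, with a 95% interval from -1.58 to -0.51 and an adjusted p of 0.106 in edgeR. CTL 94, at 80.8 CPM, lay below LIP 92, and CTL 88 and 89 lay above all 3 LIP libraries. Dusp10 had the same arrangement, with CTL 94 at 109 CPM below LIP 92 at 125 CPM, and a log2 fold change of -0.64 ± 0.19 (edgeR adjusted p = 0.174). For Spred2 the groups did not overlap, and CTL 94 was again the lowest CTL library (log2 fold change -0.48 ± 0.14, edgeR adjusted p = 0.154). Spred1 also did not overlap, so that 2 members were lower and 0 higher in every LIP library, against 9.85% and 9.26% of all genes tested.

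Leaving out CTL 94 of day 0, with 2 CTL and 3 LIP libraries, 4 members were called lower. They were Dusp1 (log2 fold change -1.34, edgeR adjusted p = 1.84e-05), Dusp10 (-0.88, edgeR adjusted p = 0.000331), Spred2 (-0.62, edgeR adjusted p = 0.0115) and Dusp5 (-0.44, edgeR adjusted p = 0.0428). In this fit 2.8% of all genes were called lower and 1.79% higher. CTL 94 was set aside because of its values for these members, so the 4 calls are no independent evidence of a LIP effect. Over all genes, its chi-square per gene was 5.406 against CTL 88 and 13.06 against CTL 89, and that of CTL 88 against CTL 89 was 6.312. Leaving out any of the other 5 libraries of day 0 gave 0 called members, and over all 6 such fits the log2 fold change of Dusp1 was between -1.34 and -0.78. Without the filter on low counts, Dusp1, Dusp10 and Spred2 were called lower, where 1.49% of 25644 genes were. In that fit the log2 fold change of Dusp1 stayed at -1.04, while its edgeR adjusted p went from 0.106 to 9.24e-29. These calls thus depend on how the fit estimated the spread.

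The immediate early genes Fos and Fosb were also lower in the LIP libraries of day 0. Fos was at 163, 130 and 50.9 CPM in CTL 88, 89 and 94 and at 34.2, 26.0 and 31.8 CPM in LIP 92, 93 and 94. Fosb was at 197, 121 and 64.3 CPM in the CTL libraries and at 25.2, 27.6 and 22.2 CPM in the LIP libraries. CTL 94 was the lowest CTL library for both, as it was for Dusp1, Dusp10 and Spred2. Fos (log2 fold change -1.89 ± 0.32, edgeR adjusted p = 0.0286) and Fosb (-2.34 ± 0.31, edgeR adjusted p = 0.00718) were the 2 genes called lower among 14 tested of a list of 17 ERK target transcription factors. Without CTL 94, 6 of the 14 were called lower. These were Fosb (-2.66, edgeR adjusted p = 9.44e-07) and Fos (-2.25, edgeR adjusted p = 2.27e-07), and also Fosl2, Ier2, Ier5 and Myc, named after their values were seen, at -0.91 to -0.35. Over all 17, the summed level was 1383, 1310 and 1065 CPM in CTL 88, 89 and 94 and 959 to 1020 CPM in the LIP group. Whether the members followed Fos and Fosb within a group was not tested. The summed level of 5 regulatory T cell markers, all 5 with counts, was 322 to 444 CPM in the CTL group and 458 to 491 CPM in the LIP group of day 0. Ikzf2 (125 to 196 against 230 to 251 CPM) and Il2ra (77.6 to 91.3 against 101 to 107 CPM) did not overlap, whereas Foxp3 (47.4 to 65.5 against 58.0 to 72.8 CPM), Ctla4 and Ikzf4 did, and the part of these cells in the member values was not tested. The sums of 6 B cell markers overlapped, at 6.02 to 12.5 CPM in the CTL and 7.85 to 9.35 CPM in the LIP libraries. Those of 5 NK or cytotoxic cell markers overlapped too, and among them only Prf1 did not (36.2 to 52.6 against 26.5 to 31.3 CPM). Pancreatic acinar cell markers summed to 0.602 to 1.18 CPM in CTL and 0.689, 22.8 and 5.75 CPM in LIP 92, 93 and 94. Of 6 activation markers, Cd69 was lower (152 to 176 against 215 to 387 CPM) and Il2ra higher in every LIP library, and the others overlapped. Their part in the member values was not tested.

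On day 2, 0 of the 10 members passed the threshold between LIP and CTL in edgeR, where 0.0% of 14041 genes passed. In DESeq2, 0 of the 9 members with an adjusted p passed (Spry2 had none), where 3.52% of 13762 genes with one did. At an unadjusted p under 0.05, edgeR had 1 member higher (Dusp5) and 1 lower (Dusp6), where 8.33% of all genes were higher and 8.2% lower, and DESeq2 had 2 higher and 1 lower, where 8.48% of all genes were higher and 6.54% lower. No member had groups that did not overlap, where 10.9% of all genes were higher and 10.5% lower in every LIP library.

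Dusp6 was at 253 ± 33.4 CPM in the CTL group and 166 ± 52.7 CPM in the LIP group (log2 fold change -0.62, 95% interval -1.11 to -0.13, edgeR adjusted p = 0.216). Dusp5 was at 81.1 ± 12.9 CPM and 124 ± 36.1 CPM (0.60, 95% interval 0.10 to 1.11, edgeR adjusted p = 0.232), and Dusp4 at 128 ± 33.1 CPM and 185 ± 50.7 CPM (0.53, 95% interval -0.05 to 1.10, edgeR adjusted p = 0.344). In all 3, LIP 90 lay within the range of the CTL libraries and LIP 96 and 97 outside it. Without LIP 90, all 3 were called, Dusp6 lower at -0.87 (edgeR adjusted p = 0.00575), Dusp5 higher at 0.83 (edgeR adjusted p = 0.00772) and Dusp4 higher at 0.76 (edgeR adjusted p = 0.0304). In this fit 7.74% of all genes were called higher and 6.19% lower. Leaving out any of the other 5 libraries of day 2 gave 0 called members. The smallest values were 0.33 for Dusp4 without CTL 97, and 0.40 for Dusp5 and -0.43 for Dusp6 without LIP 96. The authors' table of day 2 has 3 LIP columns, of which that of LIP 90 matched a labelled library. The other 2 matched no labelled sample and were not used, so the counts of LIP 96 and 97, which decide these 3 calls, were not checked against that table.

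Each antibody named in the treatment labels of day 2 covered 1 CTL and 1 LIP library. Since the protocol names anti-CD28 alone, whether the libraries that share a label were treated alike and unlike the others is not known, and the values are set side by side only as the labels stand. Dusp6 was lower in the LIP library within each, at 225 against 248 CPM for anti-CD28, 123 against 289 CPM for anti-CD29 and 151 against 222 CPM for anti-CD30. Dusp5 was lower for anti-CD28 (87.0 against 96 CPM) and higher for anti-CD29 (159 against 73.3 CPM) and anti-CD30 (126 against 73.9 CPM). With the named antibody as a term in the fit, the log2 fold changes were -0.65 for Dusp6 (edgeR adjusted p = 0.288) and 0.57 for Dusp5 (edgeR adjusted p = 0.379).

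Markers of other cells or T cell subsets also differed between the LIP libraries of day 2. The summed level of 6 B cell markers was 2.42 CPM in LIP 90 but 33.3 and 30.3 CPM in LIP 96 and 97, and 3.28 to 19.6 CPM in the CTL group. All 6 had counts in both groups. Of 5 NK or cytotoxic cell markers, summed at 6.99, 60.9 and 16.1 CPM in LIP 90, 96 and 97 and at 15.6 to 22.3 CPM in the CTL group, the granzyme gene Gzma made up 46.2 CPM in LIP 96. The NK cell receptor genes Ncr1 and Klrb1c were at no more than 0.374 and 0.749 CPM in any library of day 2. The CD8 markers Cd8a and Cd8b1 summed to 13.2 and 9.2 CPM in LIP 96 and 97, against 4.93 CPM in LIP 90 and 4.43 to 6.33 CPM in the CTL group. The 5 regulatory T cell markers overlapped in their sum (1920 to 2131 CPM in LIP, 1586 to 2252 CPM in CTL). Among them, Foxp3 (27.9 to 31.8 against 35.9 to 42.3 CPM) and Ikzf2 (77.4 to 93.6 against 106 to 126 CPM) were lower in every LIP library, the reverse of Ikzf2 on day 0, and the other 3 overlapped. The sums of 6 activation markers overlapped (4817 to 5143 against 4642 to 5235 CPM). The part of these cells in the values of Dusp4, Dusp5 and Dusp6 was not tested.

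**Figure D4:**
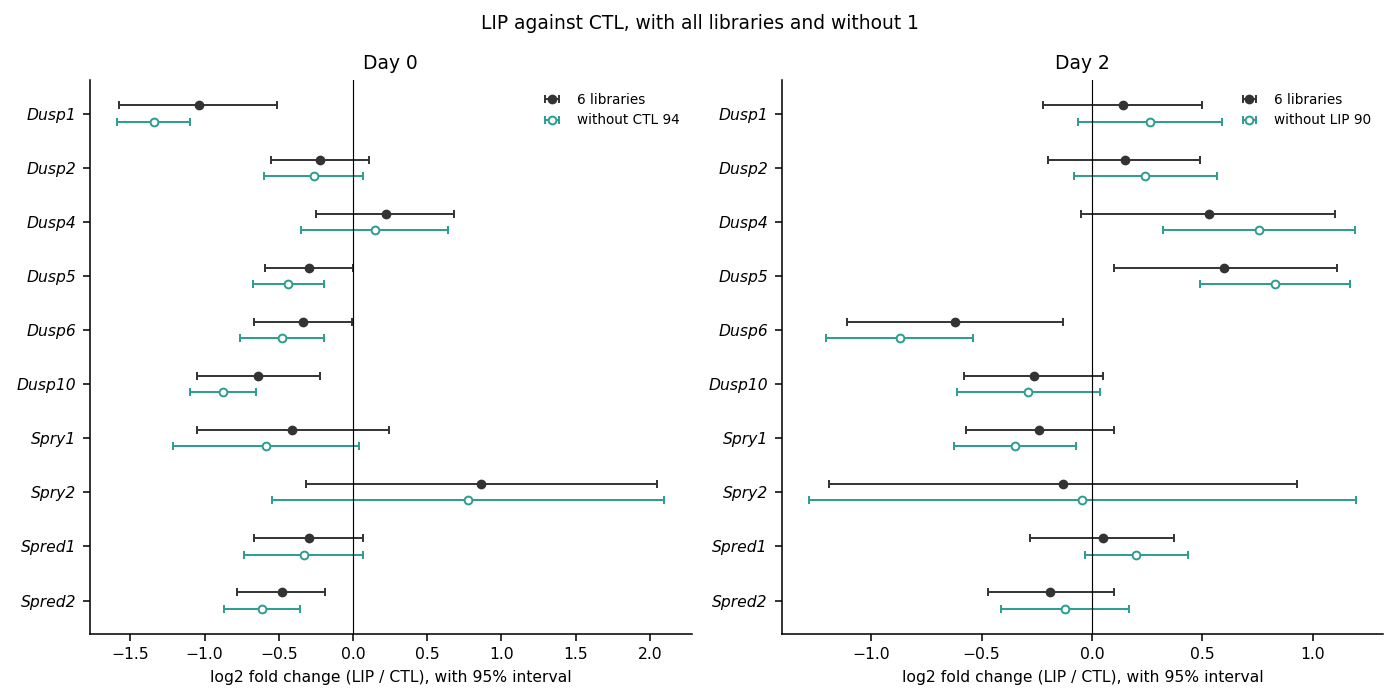
Log2 fold change of LIP over CTL (horizontal axes) with its 95% interval for day 0 in the left panel and day 2 in the right panel, from all 6 libraries of the day (black) and without CTL 94 or LIP 90 (green, open). Dusp1 moved from -1.04 to -1.34 on day 0 and Dusp6 from -0.62 to -0.87 on day 2.

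Whether LIP acted differently on the 2 days was tested as the difference of its log2 fold changes, on all 12 libraries. In edgeR, 0 members and 0.0517% of 15475 genes passed, with Dusp1 (1.2 ± 0.36, edgeR adjusted p = 0.133) and Dusp5 (0.92 ± 0.28, edgeR adjusted p = 0.139) below an unadjusted p of 0.05, where 8.65% of all genes were positive at that limit. In DESeq2 both passed, with adjusted p-values of 0.0312 and 0.048, where 2.9% of the 12773 genes with an adjusted p were called positive. Spry2 had none in that fit. Without the filter on low counts both were also called in edgeR, where 1.82% of all genes were called positive. Without LIP 90, edgeR called both (Dusp1 1.3, adjusted p = 0.0445, and Dusp5 1.12, adjusted p = 0.00557), where 5.64% of all genes were called positive. Without CTL 94 it called Dusp1 alone (1.48, adjusted p = 0.0218), where 0.131% of all genes were called positive.

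The other genes of the pathway changed with stimulation in both directions, and the counts of each list are read against the 35.3% of all genes that rose and 33.7% that fell in the CTL group, and the 36.6% and 35.2% in the LIP group. Among 10 tested of 14 other MAP kinase phosphatases, 7 rose and 1 fell in each group, and the median log2 fold change was 0.69 (CTL) and 0.62 (LIP), against -0.02 over all genes in the CTL group. These were 70.0% of the tested genes of the list higher and 10.0% lower. Dusp16, a JNK and p38 phosphatase, rose from 4.06 ± 0.960 to 48.3 ± 6.83 CPM in the CTL group (log2 fold change 3.58 ± 0.20, edgeR adjusted p = 4.14e-09) and from 3.06 ± 0.620 to 60.7 ± 9.14 CPM in the LIP group (4.30 ± 0.20, edgeR adjusted p = 1.36e-09). Dusp7, an ERK phosphatase, fell by 1.5 on the log2 scale in the CTL group and by 1.73 in the LIP group. Dusp3 (log2 fold change 3.04 in CTL and 1.65 in LIP) and Dusp14 (2.81 and 2.05) rose from under 1 CPM in both groups.

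Of 17 tested genes among 18 other Sprouty, Spred and Ras inhibitor genes, 7 rose and 6 fell in the CTL group and 8 rose and 7 fell in the LIP group. The shares, 41.2% and 35.3% in CTL and 47.1% and 41.2% in LIP, were near those of all genes, so the counts are no result about this list. Dab2ip, a Ras GTPase-activating protein, rose by 5.02 ± 0.30 on the log2 scale in CTL and 4.01 ± 0.29 in LIP. Spry4 was at 0.0 CPM in the CTL group and 0.0891 CPM in the LIP group on day 0, then at 2.03 ± 0.343 and 1.69 ± 1.39 CPM on day 2. Rasa3, another GTPase-activating protein, fell from 329 ± 42.8 to 79.5 ± 5.61 CPM in the CTL group and from 324 ± 3.06 to 79.9 ± 28.9 CPM in the LIP group. Dgka, which consumes the diacylglycerol that activates Ras, fell from 773 ± 148 to 368 ± 7.21 CPM in the CTL group. In the LIP group it fell from 766 ± 24.6 to 348 ± 24.9 CPM. The Ras regulator Rasal1 fell in both groups (log2 fold change -1.0 in CTL and -2.0 in LIP).

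Of 23 genes of the Ras and ERK cascade, 8 rose and 6 fell in the CTL group and 10 rose and 4 fell in the LIP group. The shares that rose, 34.8% and 43.5%, were near those of all genes, and the shares that fell were 26.1% and 17.4%. Mapk3, which encodes ERK1, rose from 16.6 ± 2.04 to 47.0 ± 6.97 CPM in the CTL group and from 19.5 ± 1.51 to 55.1 ± 6.71 CPM in the LIP group. Rasgrp2, an exchange factor of Rap1, fell from 248 ± 32.4 to 5.91 ± 0.559 CPM and from 243 ± 20.0 to 7.34 ± 2.34 CPM. Of the adaptors, Gab2 rose (log2 fold change 1.73 in CTL and 2.62 in LIP) and Gab3 fell (-3.18 and -3.09). Among 15 tested of 16 genes of the JNK and p38 cascades, 6 rose in each group, and 3 fell in CTL and 4 in LIP. The share that rose was 40.0% in each group, near that of all genes, and the shares that fell were 20.0% and 26.7%. The p38 kinase activator Map2k3 rose by 2.06 in CTL and 2.00 in LIP on the log2 scale and the related Map2k6 fell (-2.61 and -1.5). Mapkapk2, a kinase downstream of p38, rose by 1.94 and 1.97. Map3k4 (log2 fold change -0.79 in CTL and -0.63 in LIP) and Mapk8, which encodes JNK1 (-0.74 and -0.71), fell in both groups.

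Of the 17 ERK target transcription factors, 10 rose and 3 fell in the CTL group and 9 rose and 3 fell in the LIP group, that is 58.8% and 52.9% higher and 17.6% lower in each. Fosl1 was at 0.0 CPM in all 6 libraries of day 0 and at 11.8 ± 3.42 CPM in the CTL group and 10.6 ± 0.516 CPM in the LIP group on day 2. Ier3 rose from 0.282 ± 0.246 to 5.92 ± 3.02 CPM in the CTL group and from 0.271 ± 0.228 to 7.52 ± 2.20 CPM in the LIP group. Fosb (log2 fold change -4.67 in the CTL and -3.91 in the LIP group) and Fos (-2.84 and -0.80) fell, as did Dusp1. Between LIP and CTL, Fos and Fosb on day 0 were the only calls of these 5 lists with all libraries, among 72 genes tested on day 0 and 82 on day 2. Without CTL 94, 8 of 73 genes were called lower on day 0 and 0 higher, the 6 ERK target genes given above and Cblb (-0.42) and Shoc2 (-0.32), where 2.8% of all genes were called lower. Without LIP 90, 6 of 82 genes were called higher and 6 lower on day 2, where 7.74% and 6.19% of all genes were. The higher ones were Styx, Dok1, Sos1, Fosl2, Egr1 and Ier2, at 0.40 to 0.89 on the log2 scale. The lower ones were Map3k7, which encodes the kinase TAK1 (-0.89, edgeR adjusted p = 0.00144), and Dusp3, Ptpn7, Dab2ip, Hras and Fosb, at -1.87 to -0.38. Ier2 was named after its value was seen.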

How the data were processed

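RNA of splenic CD4+ T cells was read from 12 libraries, grouped by the treatment labels. The authors sequenced directional, rRNA-depleted libraries, checked and trimmed the reads with FastQC and Trimmomatic, mapped them to GRCm39 with HISAT2, and deposited expected counts per gene from RSEM 1.3.0 with Bowtie2, without normalization. The authors also deposited tables of signal per library for each day, used here for gene symbols, positions and a check of the counts of 10 libraries (those of LIP 96 and 97 of day 2 were not checked). Those tables also hold fold changes and p-values, which were not used, and 2 columns of no labelled sample were left out.

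Expected counts were rounded to whole numbers and tested in R 4.3.3 with edgeR 4.0.16 (filterByExpr, TMM, quasi-likelihood test, Benjamini-Hochberg adjustment over all genes tested). LIP was compared with CTL on the 6 libraries of each day. The changes between days and the difference of the LIP effect used all 12. CPM used TMM factors of the 12 libraries, and levels per kb used merged GENCODE M39 exons. For a count of 0 the limit was set at 3 counts, which were 0.269 to 0.452 CPM and cover counting error only. As alternatives, scaling was by RLE or upper quartile, DESeq2 1.42.0 replaced edgeR, the filter on low counts was dropped or raised to 10 counts in each library, the fit took another set of libraries, length was that of the longest transcript, and each library was left out. DESeq2 gave no adjusted p to some genes, which were left out of its shares. The labelled antibody as a term was added after seeing the data. The scripts were tested on simulated data. The members and lists were chosen with earlier results of these data known. From each pathway list, at most 2 called genes with the largest positive and 2 with the largest negative log2 fold change were named in each comparison. Figures were drawn with Python 3.11.15 and matplotlib 3.10.9. The naive or resting T cell marker list is not reported here.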

Additional observations from a re-analysis of the deposited data

How the results depend on the processing

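The calls between days were stable over the alternatives run, with 8 members called in the CTL group and 8 or 9 in the LIP group. The ninth was Dusp2, called with DESeq2 (0.40, adjusted p = 0.0456), without the filter on low counts (0.43, edgeR adjusted p = 0.0057), and without LIP 92 of day 0 or LIP 90 of day 2 (0.58 and 0.46, edgeR adjusted p = 0.0108 and 0.0318). The calls between LIP and CTL were not. Without the filter on low counts, 3 members were called on day 0 (Dusp1, Dusp10 and Spred2) and 2 for the difference between days (Dusp1 and Dusp5), and DESeq2 called 2 for that difference, and the shares of all genes called in these fits are given beside the results. Leaving out each library in turn gave 0 to 4 called members on day 0, 0 to 3 on day 2 and 0 to 2 for the difference between days. The cause was not tested. Upper-quartile normalization moved the median log2 fold change of all genes between days from -0.02 to -0.31 in the CTL group and from -0.0028 to -0.32 in the LIP group. It gave 4259 genes higher and 6827 lower in the CTL group, against 5456 and 5220 with TMM, and 4293 and 7084 in the LIP group, against 5665 and 5446. The same 8 members were called in each.

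Changes of sign were limited to values without a call. Spry2 between days in the CTL group was at 0.21, at -0.07 with upper-quartile normalization and between -0.27 and 1.06 without 1 library. Dusp2 there was at 0.04 without the filter and between -0.11 and 0.18 without 1 library. Between LIP and CTL on day 2, leaving out 1 library gave -0.53 to 0.18 for Spry2 and -0.02 to 0.20 for Spred1 (-0.0007 without LIP 97), and for the difference between days -0.23 to 0.36 for Spry1. With the longest transcript as length, 8 of the 40 ranks of level per kb moved, each between neighbours. Spry2 could not be tested with at least 10 counts in every library. No paired analysis was possible because the groups compared share at most 1 label number. The fit with the named antibody as a term on day 2 rests on a treatment label and pairs no animals.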

Other observations

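For each member, the 2 genes with the most similar pattern across the 12 libraries were found among 9905 genes with a symbol and a mean of at least 5 CPM. Likeness was Pearson's r of log2 CPM after the mean of the 6 libraries of each day was subtracted, so the change between days did not enter it. The libraries share their depth and scaling, and with 12 libraries and 9905 genes high values of r arise without any relation, so the pairs are a description. Dusp1 was most like Tnfaip3 (r = 0.95) and Zrsr1 (r = 0.94). Tnfaip3 encodes A20, an inhibitor of NF-kB signalling. Dusp10 was most like Ext1 (r = 0.962) and Pvr (r = 0.954). Dusp5 was most like Birc2 (r = 0.951) and Csnk2a2 (r = 0.948), and Dusp6 most like Pde12 (r = 0.952) and Myh10 (r = 0.943). Birc2 encodes an inhibitor of apoptosis and Myh10 a non-muscle myosin. Spred2 was most like Opa3 (r = 0.951) and Ncoa2 (r = 0.897), and Dusp4 most like F730043M19Rik (r = 0.907) and Stard3nl (r = 0.896). Dusp2 was most like Uprt (r = 0.881) and Copb1 (r = 0.86), Spry1 like Lcp2 (r = 0.87) and Iba57 (r = 0.84), Spred1 like Grin3a (r = 0.889) and Slc18a2 (r = 0.861) and Spry2 like Cul7 (r = 0.822) and Grhl1 (r = 0.809). Lcp2 encodes SLP-76, an adaptor of the T cell receptor pathway. Among the members, the highest value on this measure was 0.85, between Dusp10 and Spred2, and the lowest was -0.50, between Dusp4 and Dusp6.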
